A study of Homo sapiens with 4 samples.

Results

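The genes described here make 42 proteins that shorten, decap or degrade RNA outside the CCR4-NOT complex. They were taken by symbol from the 20457 features of the deposited tables: the PAN2-PAN3 and PARN deadenylases, the decapping factors, the LSM1 to LSM7 ring, the XRN exonucleases, and the exosome with its cofactors. All 42 symbols were listed, and all 42 had a mean TPM (the share of all transcripts after correction for transcript length) of at least 1, the minimum for the test. The cells were HEK293, an established line from human embryonic kidney. In 2 libraries (siControl) the cells had received a negative control siRNA, and their genotype is labelled WT. In the other 2 (siCNOT4) they had received siRNA against CNOT4, a ubiquitin ligase of the CCR4-NOT complex, and the genotype is labelled CNOT4 knockdown. Both siRNAs were given at 10 nM for 72 h, and poly(A) RNA was sequenced. The study asked what CNOT4 contributes to the effect of codon usage on expression. The labels do not say whether the 2 libraries of a group came from separate cultures, so the p values measure only the spread between these libraries, which may be technical. The line was the same in all 4 libraries, so the design describes 1 line and 1 time point.

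Decay of a eukaryotic mRNA usually begins with removal of its poly(A) tail. PAN2-PAN3 trims long tails, and PARN acts mainly on tails of small non-coding RNAs and some mRNAs. The body is then degraded along either of 2 routes. On the 5′ route the LSM1-7 ring and PATL1 bind the shortened tail, DCP2 removes the cap with the help of DCP1, EDC and DDX6 proteins, and XRN1 digests the RNA. On the 3′ route the exosome, a barrel of core subunits that carries DIS3-type nucleases and EXOSC10, is fed by helicase complexes, which are Ski in the cytoplasm and MTREX (listed as SKIV2L2) in the nucleus.

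Promoter sequence is shown for the 4 genes that passed the test on TPM as deposited: DCP2 and WDR61, which were higher in siCNOT4, and LSM7 and EXOSC5, which were lower. Each window is the 250 bases before the RefSeq start (GRCh38.p14), written 5′ to 3′ on the strand of the gene. They lie at chr5:112976548-112976797 on the plus strand, chr15:78299610-78299859 on the minus strand (listed by RefSeq as SKIC8), chr19:2328587-2328836 on the minus strand and chr19:41397360-41397609 on the minus strand. Capitals mark matches on either strand to 7 searched motifs: the ETS site CCGGAAG, the CCAAT box CCAAT, the GC box GGGCGG, the NRF1 site, the YY1 site, the cAMP response element TGACGTCA and the ATF4 element TGATGNAA.
DCP2: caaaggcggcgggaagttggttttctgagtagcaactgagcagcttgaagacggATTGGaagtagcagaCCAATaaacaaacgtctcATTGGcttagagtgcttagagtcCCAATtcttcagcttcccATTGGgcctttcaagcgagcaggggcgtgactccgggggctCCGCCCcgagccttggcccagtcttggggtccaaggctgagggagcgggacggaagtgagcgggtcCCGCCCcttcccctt
WDR61: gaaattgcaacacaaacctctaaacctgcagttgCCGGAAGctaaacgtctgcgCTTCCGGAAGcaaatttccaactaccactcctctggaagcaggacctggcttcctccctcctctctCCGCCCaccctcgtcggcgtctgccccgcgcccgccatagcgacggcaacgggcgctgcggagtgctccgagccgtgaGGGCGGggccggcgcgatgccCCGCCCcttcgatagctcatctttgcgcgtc
LSM7: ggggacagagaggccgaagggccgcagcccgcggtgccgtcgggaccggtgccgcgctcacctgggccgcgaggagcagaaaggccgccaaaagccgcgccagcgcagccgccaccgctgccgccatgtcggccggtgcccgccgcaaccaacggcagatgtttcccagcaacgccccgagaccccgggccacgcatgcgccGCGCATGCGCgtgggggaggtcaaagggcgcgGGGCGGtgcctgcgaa
EXOSC5: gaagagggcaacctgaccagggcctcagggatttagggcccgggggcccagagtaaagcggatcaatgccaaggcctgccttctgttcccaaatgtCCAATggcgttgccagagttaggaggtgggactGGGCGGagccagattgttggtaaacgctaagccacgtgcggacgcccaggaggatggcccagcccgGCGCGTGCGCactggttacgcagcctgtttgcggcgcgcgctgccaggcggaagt

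The 2 promoters of genes that were lower, LSM7 and EXOSC5, each held an NRF1 match and a GC box, and EXOSC5 also held 1 CCAAT box. The DCP2 window held 5 CCAAT boxes and 2 GC boxes. The WDR61 window held 3 ETS matches, 2 of which overlap on opposite strands, and 3 GC boxes. Of the 42 genes, 37 had an entry in the RefSeq promoter table. The NRF1 site was found in 7 of these 37 (18.9%: PAN2, PARN, PATL1, LSM2, LSM7, EXOSC5 and TTC37), against 5.2% of all 27305 promoters. The GC box was found in 81.1% against 41.3%, the ETS site in 21.6% against 8.72%, the CCAAT box in 18.9% against 32.7%, and the cAMP response element in 2.7% (XRN2) against 1.73%. The ATF4 and YY1 letters were in none of the 37 windows and in 3.34% and 0.494% of all promoters. The 37 windows had a median GC content of 63.6%, against 57.6% over all promoters, and these shares are a description only.

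The targeted transcript, CNOT4, had a TPM of 6.43 and 4.73 in siControl and of 3.38 and 3.81 in siCNOT4 (limma adjusted p 0.184 on TPM as deposited, 0.0359 after TMM scaling). The target was thus lower in each knockdown library than in either control. NEFL, a neurofilament gene typical of HEK293, was at 307 to 384 TPM in the 4 libraries, whereas NEFM was at 0.412 to 0.916, INA at 5.62 to 20.8 and PAX2 at 1.10 to 1.91. Of 5 markers of other cell types, PTPRC (blood), ALB (liver) and PECAM1 (endothelium) stayed at or below 0.255 TPM, while DES (muscle) and COL1A1 (fibroblasts) passed the test as higher in siCNOT4, as did INA. The summed level of the 5 was 2.39 and 2.01 TPM in siControl and 8.85 and 10.5 TPM in siCNOT4, and its part in the results below was not tested. The siControl replicates lay further apart than the siCNOT4 replicates on the log2(TPM + 1) scale. Over the 42 genes, the SD of the difference between replicates was 0.54 in siControl and 0.115 in siCNOT4. Over all tested features it was 0.48 and 0.20, so the wider siControl spread was not particular to the decay genes. In these bulk samples, fewer cells of a type and less RNA per cell cannot be told apart. The deposited tables give no read totals, so no counting error is given.

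Groups were compared with limma on log2(TPM + 1). Taken as siCNOT4 minus siControl, the log2 fold change had a median of 0.50 over all 14208 tested features, so values are also given relative to that median or after scaling each library by a trimmed mean (TMM), which gave a median of 0.0087. Of the 42 decay genes, 4 had a limma adjusted p under 0.05 (9.52%), against 12.6% of all tested features, and 23 had an unadjusted p under 0.05, against 42% of all. DCP2 and WDR61 were higher in siCNOT4 (background 11.3% higher), and LSM7 and EXOSC5 were lower (background 1.3% lower). After TMM scaling 4 were called, against 8.78% of all features, and all 4 were lower: EXOSC5, LSM7, LSM2 and DCP1B (background 4.33% lower and 4.45% higher). After quantile normalization 9 were called, against 15.3% of all features, 2 of them higher (DCP2 and WDR61; background 7.11%) and 7 lower (DCP1A, DCP1B, EXOSC3, EXOSC5, EXOSC7, LSM2 and LSM7; background 8.23%). Without siCNOT4 replicate 1 EXOSC5 alone was called (3.35% of all features), and without siCNOT4 replicate 2 again EXOSC5 alone (3.17%). Without siControl replicate 1, 34 of the 42 were called against 79.6% of all features, and without siControl replicate 2, 27 were called against 57.5%, since the spread then comes from the close siCNOT4 pair.

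**Figure D1:**
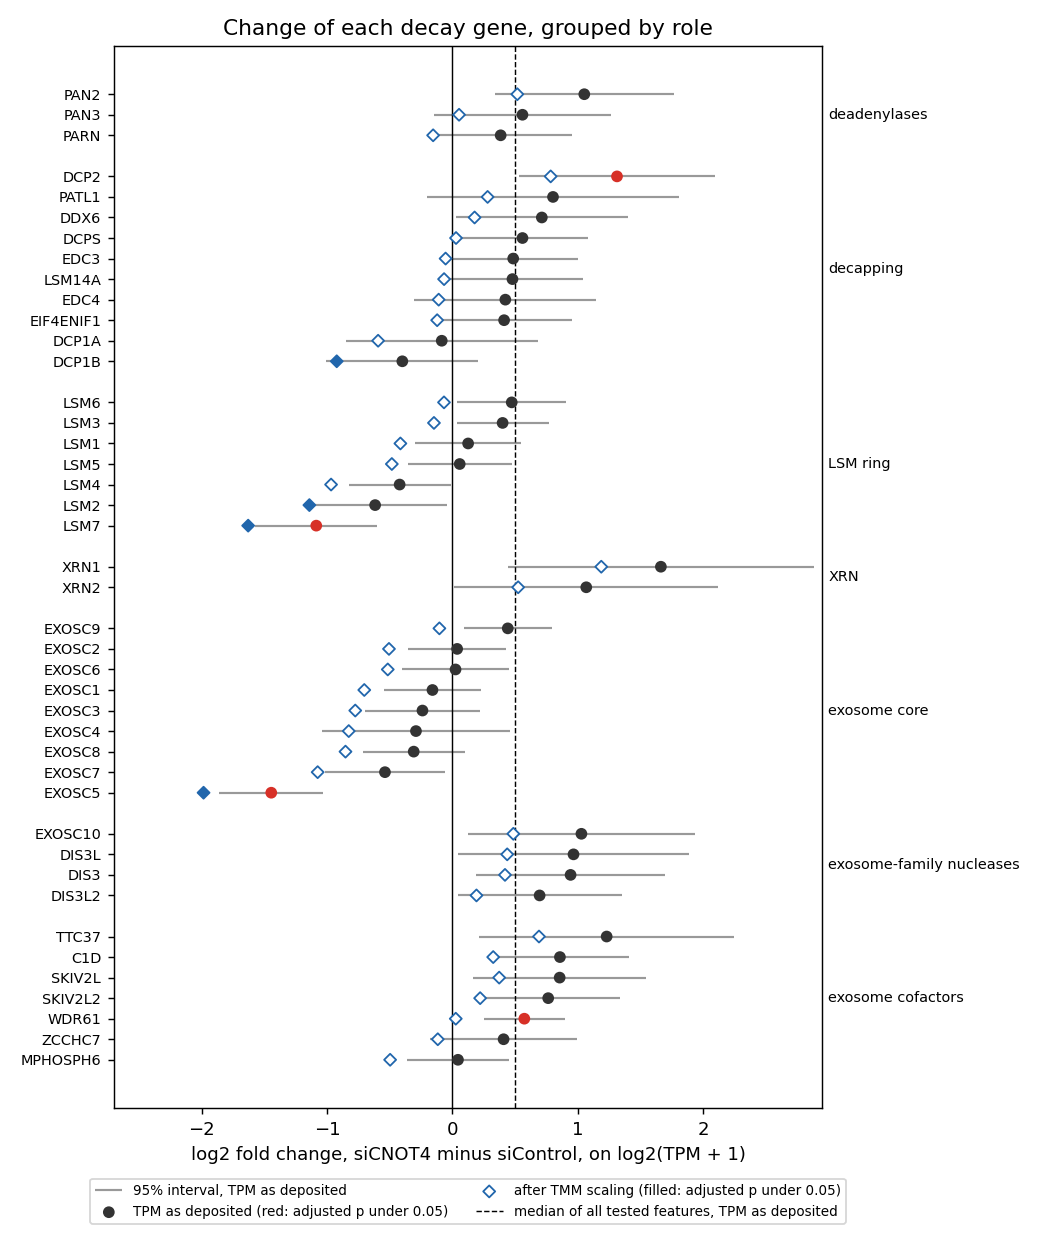
Log2 fold change (siCNOT4 minus siControl, x axis) of each of the 42 genes, grouped by role. Circles and 95% intervals are from TPM as deposited, diamonds are after TMM scaling. The 9 core exosome genes and the 7 LSM ring genes all lie left of the dashed median of all tested features (0.50), and all 4 exosome-family nucleases and both XRN genes lie right of it.

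The median of the 42 log2 fold changes was 0.43, which is -0.068 relative to the median of all features. The values ran from -1.44 (EXOSC5) to 1.66 (XRN1). Of the 42, 31 were above 0 (73.8%, against 81.2% of all features) and 17 were above the median of all features (40.5%). The siCNOT4 libraries were both above the siControl libraries in 27 genes (64.3%, against 66.4% of all features) and both below in 9 (21.4%, against 10.6%). After TMM scaling they were both above in 11 (26.2%, against 35.3%) and both below in 19 (45.2%, against 34.4%). Transcripts of the decay genes together made up 0.310% and 0.283% of all TPM in siControl and 0.349% and 0.355% in siCNOT4. These shares are of TPM as deposited and carry the general shift. After TMM scaling the median log2 fold change of the 42 genes was -0.11.

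**Figure D2:**
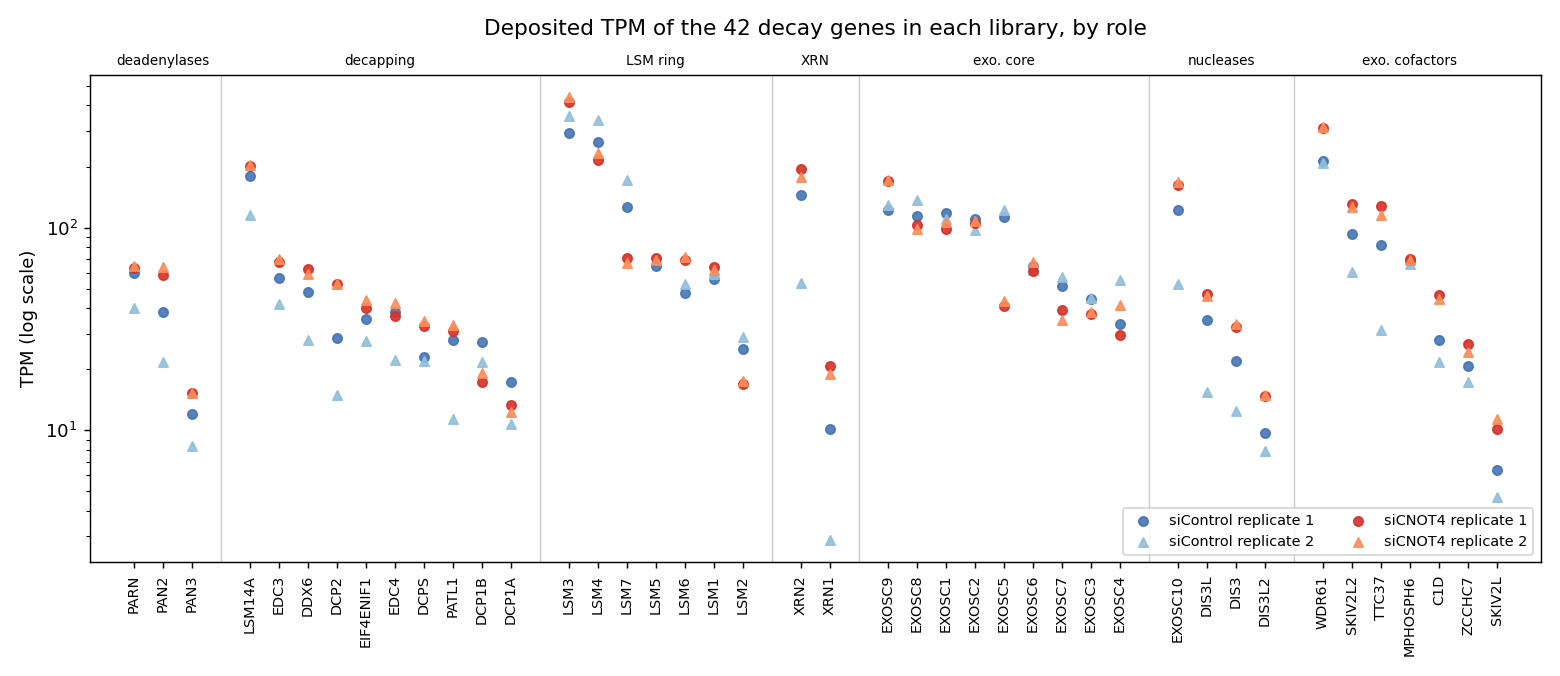
Deposited TPM (log axis) of the 42 genes in each library, in order of mean level within each role. The highest level was 441 TPM (LSM3, siCNOT4 replicate 2) and the lowest was 2.88 TPM (XRN1, siControl replicate 2).

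TPM is corrected for length, which allows levels to be compared between genes within a limit. Differences between the siControl replicates still moved with transcript length (Spearman rho 0.763 over the 42 genes). The order of long and short genes can therefore depend on the library. By mean over the 4 libraries, the most abundant were LSM3 (376 TPM, a ring subunit), LSM4 (263 TPM, a ring subunit) and WDR61 (261 TPM, a subunit of the Ski complex that also belongs to the PAF complex of transcription). LSM3 was the highest in every library, while LSM4 exceeded WDR61 in both siControl libraries and WDR61 exceeded LSM4 in both siCNOT4 libraries. The least abundant were SKIV2L (8.16 TPM, the Ski helicase), DIS3L2 (11.8 TPM, a nuclease of uridylated RNA that works without the exosome) and PAN3 (12.7 TPM, the adaptor subunit of PAN2-PAN3). XRN1 (13.2 TPM) was next to them in mean level but was below all 3 in siControl replicate 2 and above all 3 in both siCNOT4 libraries.

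None of the 3 deadenylase genes passed the test, which 12.6% of all tested features passed. PAN2, the catalytic subunit of PAN2-PAN3, had 38.2 and 21.8 TPM in siControl and 58.1 and 64.0 in siCNOT4. Both siCNOT4 libraries were above both siControl libraries, also after TMM scaling, and PAN2 had the highest fold change of the 3 (1.05, 95% interval 0.34 to 1.77, adjusted p 0.0604). PAN3 had 12.1 and 8.34 TPM in siControl and 15.3 in each siCNOT4 library. Its log2 fold change was 0.56, close to the median of all features. PARN, a cap-stimulated deadenylase, had 59.4 and 40.2 TPM in siControl and 63.5 and 64.9 in siCNOT4. Its log2 fold change was 0.39 as deposited and -0.15 after TMM scaling, so its direction depended on the scaling. Without siControl replicate 2 the log2 fold change was 0.66 for PAN2, 0.32 for PAN3 and 0.11 for PARN. The median of all tested features in that fit was 0.295.

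Among 10 decapping genes, 1 was called higher on TPM as deposited, as were 11.3% of all tested features, and 9 did not pass the test. DCP2, the main mRNA decapping enzyme, had 28.5 and 14.9 TPM in siControl and 52.8 and 52.9 in siCNOT4, a mean of 21.7 ± 9.60 against 52.8 ± 0.0344 (SD, n = 2 each). The siControl values differed from each other by 0.89 on the log2 scale, and the groups did not overlap under any of the 3 scalings (as deposited, TMM, quantile). Its log2 fold change was 1.31 (SE 0.32, limma adjusted p 0.0496), just inside the threshold. After TMM scaling it was 0.78 (adjusted p 0.0636). Without siCNOT4 replicate 1 or 2 the adjusted p of DCP2 was 0.250 or 0.254, at values of 0.79 or 0.83 relative to the median of all features, against 0.81 with all libraries. Without siControl replicate 1 its log2 fold change was 1.76, or 1.05 relative to the median of all features in that fit. Without siControl replicate 2 it was 0.87, against a median of 0.295 over all features. DCPS, the scavenger enzyme that hydrolyses the cap left after 3′ decay, had 23.1 and 22.1 TPM in siControl and 32.7 and 34.8 in siCNOT4. The replicates of DCPS were close in both groups, and its log2 fold change of 0.56 (95% interval 0.04 to 1.08, adjusted p 0.105) became 0.029 after TMM scaling.

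The DCP1 paralogues, which are cofactors of DCP2, had the 2 lowest fold changes of the decapping genes. DCP1B had 27.3 and 21.8 TPM in siControl and 17.3 and 19.3 in siCNOT4. The groups of DCP1B did not overlap. The log2 fold change was -0.40 as deposited (limma adjusted p 0.251) and -0.92 after TMM scaling (adjusted p 0.0356), so the call depended on the scaling. DCP1A had 17.3 and 10.7 TPM in siControl and 13.3 and 12.3 in siCNOT4. Its groups overlapped as deposited (-0.08, adjusted p 0.846). After quantile normalization the change was -0.68 (adjusted p 0.0428), and after TMM scaling it was -0.59 (adjusted p 0.0779). The remaining decapping genes were EDC3 and EDC4 (enhancers of decapping), DDX6 (a helicase of repressed mRNAs), LSM14A and EIF4ENIF1 (repressor proteins that bind DDX6 or the cap-binding protein eIF4E) and PATL1 (a scaffold between the LSM ring and the decapping enzyme). These 6 had log2 fold changes from 0.41 to 0.80 and limma adjusted p values from 0.111 to 0.300. Without siControl replicate 2 the values ran from 0.047 (EDC4) to 0.34 (DDX6), against a median of 0.295 over all tested features. LSM14A was the most abundant decapping gene in all 4 libraries, with 181 and 115 TPM in siControl and 201 and 202 in siCNOT4.

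The LSM ring binds the oligoadenylated 3′ end of mRNA. On TPM as deposited, 1 of its 7 genes was called lower, against 1.3% of all tested features, and 6 did not pass the test. LSM7 had 126 and 173 TPM in siControl and 71.2 and 67.0 in siCNOT4, a mean of 149.5 ± 32.6 against 69.1 ± 2.96 (SD, n = 2 each). Its level in siCNOT4 was 0.462 of that in siControl, and the groups did not overlap under any of the 3 scalings. The log2 fold change was -1.09 (SE 0.20, limma adjusted p 0.0330) as deposited and -1.63 (adjusted p 0.0442) after TMM scaling. Only 0.493% of tested features had a lower log2 fold change. Of its exonic bases, 0.353% overlap exons of SPPL2B on the opposite strand. The adjusted p of LSM7 was 0.0998 without siCNOT4 replicate 1, 0.149 without siCNOT4 replicate 2, 6.02e-05 without siControl replicate 1 and 0.00109 without siControl replicate 2.

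LSM2 had 25.2 and 28.7 TPM in siControl and 16.9 and 17.6 in siCNOT4. The groups did not overlap, with a log2 fold change of -0.62 as deposited (limma adjusted p 0.104) and -1.14 after TMM scaling (adjusted p 0.0492). LSM4 had 265 and 339 TPM in siControl and 216 and 232 in siCNOT4 (-0.42, adjusted p 0.113). LSM3 went the other way on deposited TPM, with 293 and 357 TPM in siControl and 415 and 441 in siCNOT4 (0.40, adjusted p 0.101), and its value after TMM scaling was -0.15. LSM6, with the highest log2 fold change of the ring (0.47), had 47.8 and 52.9 TPM in siControl and 69.0 and 71.4 in siCNOT4 (adjusted p 0.101), and -0.07 after TMM scaling. LSM1, the subunit that sets the cytoplasmic ring apart from the nuclear one, had 55.9 and 58.8 TPM in siControl and 63.9 and 61.5 in siCNOT4. LSM1 (0.13) and LSM5 (0.06) had 95% intervals that span 0. Summed over the 7 genes as deposited, the ring made up 878 and 1079 TPM in siControl and 922 and 959 in siCNOT4, so the groups overlapped in that total. The overlap holds for deposited TPM only. After TMM scaling all 7 genes had a log2 fold change below 0, from -1.63 to -0.066, while 50.6% of all tested features were above 0. All 7 were also below the median of all features after removal of a smooth trend on length and GC content. After quantile normalization 2 of the 7 were above that median, as were 2 without siControl replicate 2. The spread within the ring, highest over lowest subunit, was 11.6- and 12.4-fold in siControl and 24.6- and 25.1-fold in siCNOT4.

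Neither XRN gene passed the test (12.6% of all tested features did), although both had large positive values. XRN1, the cytoplasmic 5′ to 3′ exonuclease that degrades decapped mRNA, had 10.1 and 2.88 TPM in siControl and 20.7 and 19.0 in siCNOT4. Its log2 fold change was the highest of the 42 genes at 1.66 (95% interval 0.44 to 2.89, limma adjusted p 0.0686), and 1.19 after TMM scaling (adjusted p 0.0986). The siControl replicates of XRN1 alone differed by 1.52 on the same scale. XRN2, its nuclear counterpart, which also acts in transcription termination, had 145 and 53.2 TPM in siControl and 195 and 177 in siCNOT4 (1.07, adjusted p 0.116). Without siControl replicate 2 the log2 fold change was 0.91 for XRN1 and 0.35 for XRN2, against a median of 0.295 over all tested features. For XRN2 the difference between the siControl replicates (1.43) was thus larger than the difference between the groups.

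The lowest fold change of the 42 genes was in the exosome core. Of its 9 genes, 1 was called lower as deposited, against 1.3% of all tested features, and 8 did not pass the test. All 9 had a log2 fold change under the median of all features as deposited. The same held after TMM scaling, which applies 1 factor per library and so can hardly alter it. After quantile normalization 8 of 9 were under the median. It was also 8 of 9 after removal of a smooth trend on length and GC content, and 8 of 9 without siControl replicate 2. EXOSC5, an RNase PH-like subunit of the barrel (chromosome 19, 41386374 to 41397479, GENCODE 29 on GRCh38), had 113 and 122 TPM in siControl and 41.3 and 43.7 in siCNOT4. The mean was 117 ± 6.68 against 42.5 ± 1.69 (SD, n = 2 each), or 0.362 of the siControl level. On the log2(TPM + 1) scale, replicate 1 minus replicate 2 was -0.12 in siControl and -0.08 in siCNOT4, so replicates lay far closer together than the groups did. The log2 fold change was -1.44 (SE 0.17, limma adjusted p 0.0227) as deposited and -1.98 (adjusted p 0.0298) after TMM scaling. Only 0.176% of tested features had a lower value. EXOSC5 had an adjusted p under 0.05 in 13 of 14 fits, the exception being the fit without a filter on low values (0.0544). Of its exonic bases, 1.34% overlap exons of BCKDHA on the opposite strand. Other members had larger overlaps on the opposite strand, the highest being EDC3 (13.7%), LSM1 (11.7%) and DIS3 (11.2%). LSM3 (8.34%) and EXOSC9 (5.39%), which like DIS3 enter the ratios below, were also above EXOSC5.

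EXOSC7, another RNase PH-like subunit, had 51.5 and 57.2 TPM in siControl and 39.2 and 35.1 in siCNOT4. The groups did not overlap, and the log2 fold change was -0.54 as deposited (limma adjusted p 0.0950), -1.07 after TMM scaling (adjusted p 0.0528) and -0.94 after quantile normalization (adjusted p 0.0374). Of its exonic bases, 13.6% overlap CLEC3B on the same strand, where reads could be assigned to either gene. EXOSC3, a cap subunit of the barrel, had 44.6 and 44.9 TPM in siControl and 37.4 and 38.2 in siCNOT4 (-0.24, adjusted p 0.352). After quantile normalization it was at -0.66 and its adjusted p lay just under the threshold (0.04998). EXOSC9 had the highest fold change of the core, with 123 and 129 TPM in siControl and 170.5 and 172 in siCNOT4 (0.44, 95% interval 0.09 to 0.79, adjusted p 0.0790), and -0.10 after TMM scaling. The remaining core genes, EXOSC1, EXOSC2, EXOSC4, EXOSC6 and EXOSC8, had values from -0.31 to 0.04 as deposited and adjusted p values from 0.198 to 0.917. EXOSC4 varied most between siCNOT4 replicates of all 42 genes, with 29.7 and 41.3 TPM.

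None of the 4 exosome-family nuclease genes passed the test, against 12.6% of all tested features. Each had both siCNOT4 libraries above both siControl libraries as deposited (as did 66.4% of all features) and after TMM scaling (35.3% of all features). After quantile normalization this held for EXOSC10, DIS3 and DIS3L (36.2% of all features), while the groups of DIS3L2 overlapped. EXOSC10, the nuclear 3′ to 5′ exonuclease, had 122.5 and 52.7 TPM in siControl and 162 and 168 in siCNOT4 (1.03, 95% interval 0.13 to 1.93, limma adjusted p 0.0938). DIS3, a subunit of the nuclear exosome with exonuclease and endonuclease activity, had 21.9 and 12.5 TPM in siControl and 32.4 and 33.3 in siCNOT4 (0.94, adjusted p 0.0799). DIS3L, its cytoplasmic paralogue, had 35.0 and 15.4 TPM in siControl and 46.9 and 46.1 in siCNOT4 (0.97, adjusted p 0.109). DIS3L2 had 9.66 and 7.93 TPM in siControl and 14.7 and 14.9 in siCNOT4 (0.70, adjusted p 0.106). After TMM scaling the 4 values lay between 0.19 and 0.49, with adjusted p values from 0.150 to 0.404. siControl replicate 2 was the lowest library for each of the 4. Without it the log2 fold change as deposited was 0.43 for EXOSC10, 0.56 for DIS3, 0.40 for DIS3L and 0.57 for DIS3L2. The median of all tested features in that fit was 0.295, below each of the 4.

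Of the 7 exosome cofactor genes, 1 was called higher as deposited, as were 11.3% of all tested features, and 6 did not pass the test. WDR61 had 212 and 207 TPM in siControl and 312 and 313 in siCNOT4, a mean of 209.6 ± 3.25 against 312.5 ± 1.38 (SD, n = 2 each). Its log2 fold change was 0.57 (SE 0.13, limma adjusted p 0.0455) as deposited, near the median of all features, and 0.027 after TMM scaling (adjusted p 0.933), so WDR61 was called as deposited with a value close to the general shift. The adjusted p of WDR61 as deposited was 0.429 without siCNOT4 replicate 1, 0.447 without siCNOT4 replicate 2, 0.000368 without siControl replicate 1 and 0.00166 without siControl replicate 2. TTC37, the scaffold of the Ski complex, had 82.2 and 31.4 TPM in siControl and 127 and 115 in siCNOT4 (1.23, adjusted p 0.0844). SKIV2L had 6.38 and 4.72 TPM in siControl and 10.2 and 11.3 in siCNOT4 (0.86, adjusted p 0.0802). The groups of all 3 Ski genes did not overlap as deposited, with siCNOT4 higher as in 66.4% of all features, and after TMM scaling those of WDR61 overlapped. Without siControl replicate 2 the log2 fold change of TTC37 was 0.55, and without siControl replicate 1 it was 1.91. SKIV2L2 (0.76) and C1D (0.86, a nuclear exosome adaptor) were of similar size, with adjusted p values of 0.0707 and 0.0550. MPHOSPH6, a nuclear exosome protein, had 68.4 and 66.4 TPM in siControl and 70.1 and 69.0 in siCNOT4, the lowest fold change of the cofactors (0.05, 95% interval -0.36 to 0.45), and -0.50 after TMM scaling. ZCCHC7, a subunit of the nuclear TRAMP complex, had a log2 fold change of 0.41 (adjusted p 0.228).

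The genes differ in transcript length, and differences between libraries moved with it. The longest annotated protein-coding transcript (GENCODE 29), which need not be the expressed one, ran from 575 nt (LSM7) to 10604 nt (DIS3). Its median was 1198 nt in the exosome core against 3632 nt in the exosome-family nucleases. Across the 42 genes, the change between groups had a Spearman rho of 0.691 with transcript length. For the difference between the siControl replicates rho was 0.763, and for that between the siCNOT4 replicates it was 0.0419. Over 13743 tested features with a length, the same 3 values were 0.384, 0.619 and 0.163. The first and the second share the siControl libraries, and genes of 1 library are not independent. Of the 21 shortest genes 4 were above the median of all features, and of the 21 longest 13 were. After a smooth trend on length and GC content was removed from each library, 13 of the 42 genes were called, against 25.4% of all features, 3 of them higher (PAN2, DCPS and SKIV2L; background 11.9%) and 10 lower (background 13.5%). On that scale EXOSC5 was at -1.45 (limma adjusted p 0.00998), LSM7 at -1.06 (0.0124), DCP1B at -0.999 (0.0117), DCP1A at -0.81 (0.0137) and LSM2 at -0.72 (0.0141). EXOSC7, EXOSC3, LSM4, EXOSC8 and MPHOSPH6 were the other 5. XRN1 was at 0.67 (0.0694), DCP2 at 0.35 (0.0525) and DIS3 at -0.01 (0.948). The part of length in the group differences was otherwise not tested.

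**Figure D3:**
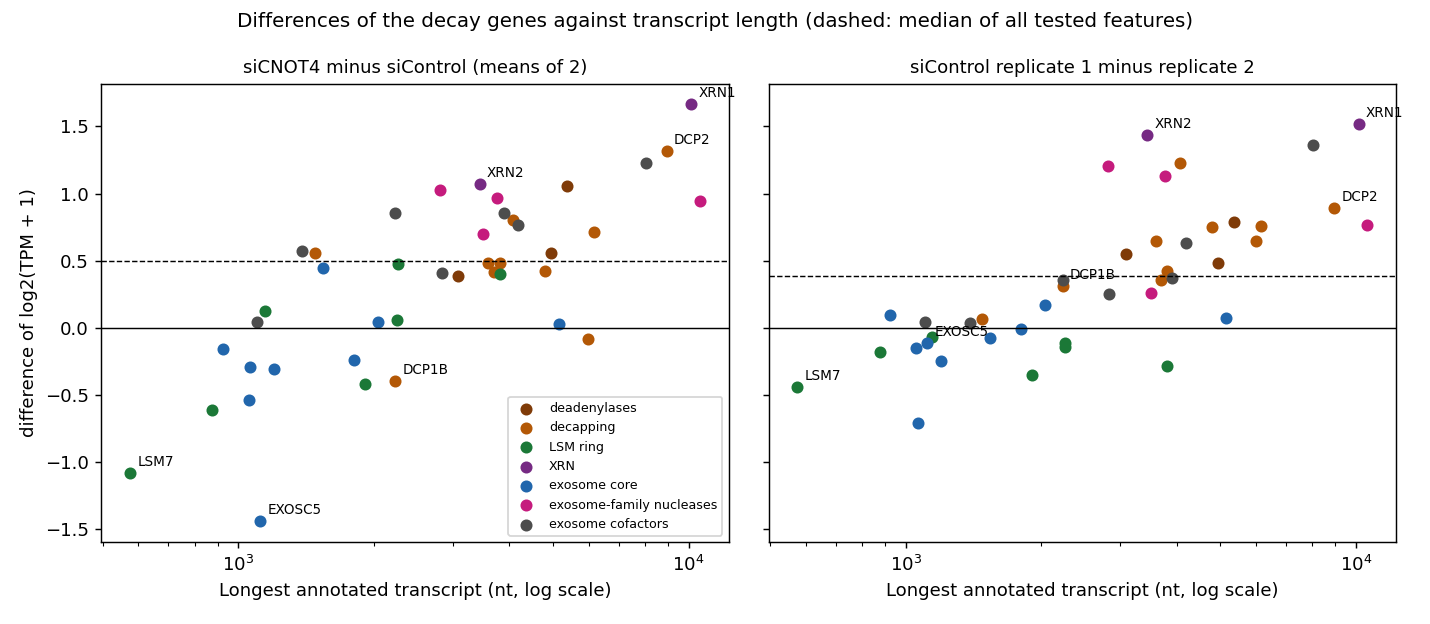
Difference of log2(TPM + 1) (y axis) against the longest annotated protein-coding transcript (nt, log x axis) for the 42 genes, coloured by role: siCNOT4 minus siControl on the left, siControl replicate 1 minus replicate 2 on the right. Long genes lie higher in both panels (rho 0.691 and 0.763), while EXOSC5 is at -1.44 on the left and -0.12 on the right.

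Ratios of TPM within 1 library do not change when all values of the library are multiplied by 1 factor, as in TMM scaling, but quantile normalization and trend removal do change them. The 13 pairs were chosen after the values were seen, so they are a description. In 12 of the 13 the groups did not overlap, and in 1, DIS3L over DIS3, they did (1.60 and 1.23 against 1.45 and 1.38). The share of other gene pairs without overlap was not computed, so this count is no result about the decay genes. In DCP1B over DCP1A the groups barely parted (1.572 and 2.036 against 1.295 and 1.566). For EXOSC5 over EXOSC9, which belong to the same barrel, the siControl ratios were 0.919 and 0.945 and the siCNOT4 ratios 0.242 and 0.254. EXOSC5 over EXOSC3 was 2.53 and 2.72 against 1.10 and 1.14. LSM7 over LSM3 was 0.431 and 0.483 against 0.172 and 0.152, and LSM7 over LSM5 was 1.96 and 2.47 against 1.01 and 0.965. In these 4 ratios the replicates were closer to each other than the groups. For DCP2 over DCP1A the siControl ratios were 1.64 and 1.39 and the siCNOT4 ratios 3.96 and 4.29. The DCP2 transcript was thus higher relative to the DCP1A transcript in both siCNOT4 libraries. XRN1 over XRN2 was 0.0696 and 0.0542 against 0.106 and 0.107. DIS3 over EXOSC3, a nuclease against a core subunit, was 0.492 and 0.279 against 0.866 and 0.872. By level among the 9 core genes, EXOSC5 took rank 4 and rank 3 in siControl and rank 6 in each siCNOT4 library.

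**Figure D4:**
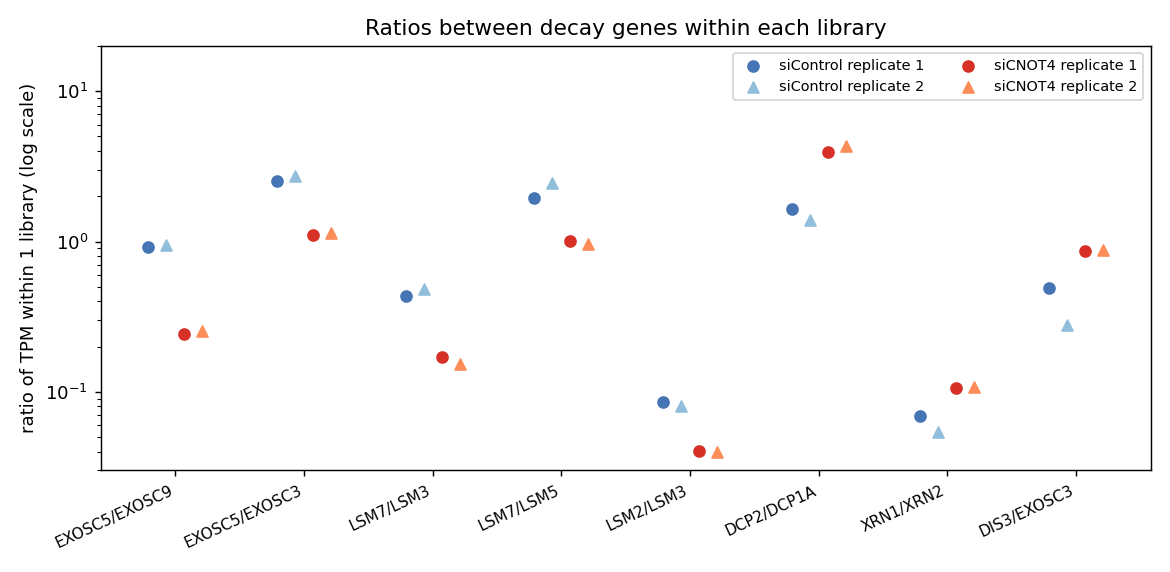
Ratios of TPM between named pairs of decay genes within each library (log axis), with 1 point per library. Of 13 ratios computed, 8 whose groups do not overlap are shown; EXOSC5 over EXOSC9 falls from 0.919 and 0.945 to 0.242 and 0.254.

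Other genes of mRNA decay were counted for comparison. Of 11 CCR4-NOT subunits, 0 were called by limma at an adjusted p under 0.05 as deposited, against 12.6% of all tested features. An unadjusted p under 0.05 was found for 6 of the 11, against 42% of all. After TMM scaling 2 were called, both lower (background 4.33% lower): RQCD1 (-0.83, limma adjusted p 0.0474) and TNKS1BP1 (-0.83, 0.0395). The median log2 fold change of the 11 subunits as deposited was 0.62, or 0.12 above the median of all features. Relative to all features, the subunit median was also higher with TMM scaling (0.069) and with quantile normalization (0.28). With length and GC content corrected for in each library, it was lower instead (-0.25). Of the 11 subunits, limma then called 4 lower and 0 higher (background 13.5% lower and 11.9% higher), so the direction depended on the processing. Of 21 further decay genes (nuclear exosome adaptors, terminal uridylyl and poly(A) transferases, other decapping and deadenylating enzymes), 20 were listed and tested. None of the 20 was called by limma as deposited (12.6% of all features were), with 10 at an unadjusted p under 0.05 (42% of all). After TMM scaling NUDT3, a cap hydrolase, was called as lower (-1.06, limma adjusted p 0.0413), against 4.33% of all features called lower. The largest positive value was that of ZFC3H1, an adaptor of the nuclear exosome (1.45, adjusted p 0.0539).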

How the data were processed

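RNA from 4 HEK293 libraries (2 siControl, 2 siCNOT4) was measured. The deposited values are TPM, per the file headers, and have the same sum in each library. The submitters' processing notes name FastQC 0.11.2, STAR 2.5.3a, featureCounts and the genome build hg19. The library kit keeps strand, per the labels' protocols. The annotation and the strand setting of the counting are not given in the sources used here. Read totals are not in the tables, so depth is unknown and no counting error is given. A rise of a few abundant genes lowers all other TPM values.

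The 42 members and the role groups were chosen with earlier results of these data known. The symbols were matched exactly. Groups came from sample titles. Nothing in the labels ties replicate numbers to cultures. Features whose TPM averaged 1 or more over the libraries (14208 of 20457) were transformed to log2(TPM + 1), which understates changes of low genes, and compared with limma 3.58.1 in R 4.3.3 (lmFit, eBayes with trend, 2 libraries against 2, no covariates). P values were adjusted by Benjamini-Hochberg over all tested features, and 0.05 was the threshold. An exact permutation test of 2 against 2 libraries cannot go below 0.333 and was not used.

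Full values were given for members called as deposited, after TMM scaling or after quantile normalization, for the highest and lowest fold change per role, for the 3 highest and 3 lowest levels, and for the enzymes that cut RNA or the cap. Alternatives were a pseudocount of 0.1, no filter, a mean TPM of at least 5, TMM, quantile normalization, removal of length and GC trends (mgcv 1.9.3), leaving out each library, and a replicate block. TMM without siControl replicate 2 was added after seeing the data. Lengths and coordinates came from GENCODE 29 (GRCh38): 18438 features matched by symbol and 969 through an older one. Each length is that of the longest protein-coding transcript, or of the longest of any kind where a gene had none. Only the limma fit without a block and the TMM factors were run on simulated data. That simulation gave both groups the same spread and held no error tied to transcript length. It therefore does not cover the unequal spread and the length relation seen here.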

Additional observations from a re-analysis of the deposited data

How the results depend on the processing

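EXOSC5 kept an adjusted p under 0.05 (limma) under every alternative except the one without a filter on low values (0.0544). Of the 42 decay genes 1 was called with a pseudocount of 0.1 (558 of all features), 0 without a filter (0 of all features; at an unadjusted p under 0.05, 13 decay genes and 6701 features), 1 at a mean TPM of at least 5 (147), 9 after quantile normalization and 13 after length and GC trends were removed (3492). Leaving out each library in turn gave 1 to 34 decay genes called and 450 to 11311 features. TMM scaling without siControl replicate 2, added after seeing the data, gave 21 and 7077. The same replicate numbers are in both groups, but differences between replicates correlated weakly across features (r = 0.171). With the replicate block 11 decay genes and 3655 features were called, and with the replicate block after TMM scaling 14 and 4459. Replicate numbers are only shared labels here, so the block is no test of pairing.

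The median of the decay genes relative to all features was 0.11 without a filter and 0.030 after quantile normalization, against -0.068 as deposited. CNOT4 was at -0.95 after TMM scaling, -1.15 after quantile normalization, -1.30 after trend removal, -0.95 with the replicate block after TMM scaling, -0.95 after TMM scaling without siControl replicate 2 and -0.70 without siControl replicate 2, and these 6 passed the threshold. Leaving out each library as deposited gave -0.70 to -0.32, and the other 3 of these fits did not pass.

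Relative to the median of all features, these genes changed sign. Without a filter PARN was at 0.062, EDC3 at 0.16, EDC4 at 0.10, LSM14A at 0.16, EIF4ENIF1 at 0.090, LSM3 at 0.078, LSM6 at 0.15, EXOSC9 at 0.12 and ZCCHC7 at 0.085. At a mean TPM of at least 5 EDC3 was at 0.0093 and LSM14A at 0.0034. After quantile normalization PAN3 was at -0.056, EDC3 at 0.11, LSM14A at 0.27, LSM3 at 0.39, LSM6 at 0.11 and EXOSC9 at 0.22. After trend removal PAN3 was at -0.26, DDX6 at -0.12, EXOSC9 at 0.044 and DIS3 at -0.011. Leaving out 1 library changed the sign of DCPS (lowest -0.12, highest 0.23), EDC4 (-0.25 to 0.090), LSM14A (-0.14 to 0.094), WDR61 (-0.12 to 0.26), PATL1 (-0.11 to 0.71), LSM3 (-0.45 to 0.25), LSM6 (-0.31 to 0.25) and EXOSC9 (-0.30 to 0.19). The cause was not tested. Unadjusted for the general shift, 14 genes had the other sign after TMM scaling, 9 after quantile normalization and 16 after trend removal. Where 1 library of a group was left out, the lone library was assumed to vary like the other group. TPM keeps no read depth, so counting error could not be separated from other spread.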
